A study of Mus musculus with 13 samples.

Results

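The leukocyte-endothelial adhesion molecules described here are 10 genes, taken from the 47643 genes listed in the count table by matching each symbol to its Ensembl identifier. Of these, 6 stand on the endothelial side: the selectins *Selp* and *Sele*, the immunoglobulin-family molecules *Icam1*, *Icam2* and *Vcam1*, and the integrin subunit *Itga5*. The other 4 stand on the leukocyte side: the selectin ligand *Selplg* and the integrin subunits *Itgb2*, *Itgam* and *Itgal*. All 10 passed the filter on low counts and were tested with 17285 genes in all.

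Neurovascular tissue was isolated from the brains of 13 male CD1 mice aged 8 to 10 weeks, and its polyadenylated RNA was sequenced. The 4 sham-vehicle mice received PBS in place of LPS, and the vehicle of the compound. The 5 LPS-vehicle mice received lipopolysaccharide from *Salmonella enterica* typhimurium (LPS, a bacterial cell wall component that raises a systemic inflammatory response) at 3 mg/kg into the peritoneum at 0, 6 and 24 h, and the same vehicle. The 4 LPS-CPD-4645 mice received the same LPS and 10 mg/kg of CPD-4645, a covalent inhibitor of monoacylglycerol lipase (MAGL), under the skin 30 min after each LPS dose by the labels. All 13 mice were killed at 28 h, which is 4 h after the last LPS dose. No group received CPD-4645 without LPS, so its effect in sham mice was not measured.

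Leukocytes leave the blood in steps. Selectins on activated endothelium catch carbohydrate ligands such as the product of *Selplg*, which slows the cell, and leukocyte integrins then bind immunoglobulin-family molecules on the vessel wall, which stops it. In resting brain vessels P-selectin and E-selectin are scarce, and inflammatory signals raise their transcription together with that of *Icam1* and *Vcam1*.

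Because the brains had not been perfused, blood cells remained inside the sampled vessels. In such a bulk sample, fewer cells of a type and less RNA per cell cannot be told apart. The 12 endothelial markers summed to 361 to 790 CPM (counts per 1000000 counts of the library) per mouse, so endothelium was present in every library. The 4 neuronal markers summed to 6242 to 8592 CPM, above the endothelial sum in every mouse, so the fraction held much neuronal RNA and was not endothelium alone. Total counts per library ran from 7813559 to 55133373, and mouse 3 of the LPS-vehicle group and mouse 1 of the LPS-CPD-4645 group had the lowest.

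Promoter sequence of 5 of the 10 genes was at hand (RefSeq, GRCm38.p6). It is shown for the 3 genes that rose most after LPS and for 1 leukocyte-side gene, as the 250 bases before the annotated start site, on the gene's own strand, 5′ to 3′. Capitals mark matches on either strand to 1 of 6 motifs, those of kappaB, AP-1, PU.1-type ETS, IRF, STAT and the TATA box, and the letters of each that was found follow the sequences. No matches overlapped in the promoters shown. The *Sele* window lies at chr1:164047984-164048233 (plus strand), the *Selp* window at chr1:164115014-164115263 (plus strand), the *Icam1* window at chr9:21015690-21015939 (plus strand) and the *Itgam* window at chr7:128062390-128062639 (plus strand).
Sele: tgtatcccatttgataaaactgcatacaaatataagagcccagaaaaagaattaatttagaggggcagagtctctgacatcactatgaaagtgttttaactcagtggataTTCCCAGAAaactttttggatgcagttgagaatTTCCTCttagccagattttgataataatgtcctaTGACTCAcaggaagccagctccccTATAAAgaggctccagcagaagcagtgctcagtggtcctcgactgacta
Selp: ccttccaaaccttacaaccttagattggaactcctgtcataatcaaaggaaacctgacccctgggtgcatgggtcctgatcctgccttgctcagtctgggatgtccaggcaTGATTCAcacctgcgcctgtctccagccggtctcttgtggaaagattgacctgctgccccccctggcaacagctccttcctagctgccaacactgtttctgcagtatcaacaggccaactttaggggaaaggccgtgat
Icam1: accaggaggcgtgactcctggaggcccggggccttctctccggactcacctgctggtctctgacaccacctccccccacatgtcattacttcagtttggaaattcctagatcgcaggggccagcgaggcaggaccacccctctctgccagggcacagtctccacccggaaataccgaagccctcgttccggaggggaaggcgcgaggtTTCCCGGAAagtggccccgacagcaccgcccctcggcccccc
Itgam: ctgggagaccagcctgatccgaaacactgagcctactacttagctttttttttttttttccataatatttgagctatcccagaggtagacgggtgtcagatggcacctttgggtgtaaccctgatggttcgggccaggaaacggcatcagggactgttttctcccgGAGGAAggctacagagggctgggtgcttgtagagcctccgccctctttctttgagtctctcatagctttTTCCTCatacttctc

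*Sele* and *Selp* each held an AP-1 match (TGANTCA), beginning 73 and 139 bases before the start site, and 6.75% of the 32817 promoters of this length held one. *Sele* and *Icam1* each held a STAT match (TTCNNNGAA), at 140 and 42 bases, against 7.01% of all promoters. *Itgam* held 2 PU.1-type matches (GAGGAA) and no other, and that short motif was in 23.3% of all promoters. *Sele* also held a match to the TATA box, TATAAA (12.4% of promoters), and a PU.1-type match. The kappaB and IRF consensus letters are not spelled out here, and nothing is read from the lack of capitals for them. The matches describe the letters only, and no binding was measured here.

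The plot of levels by mouse gives all 10 genes on the log2 CPM scale, where library sizes were scaled by TMM and 2 counts, scaled to library size, were added before the logarithm.

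**Figure D1:**
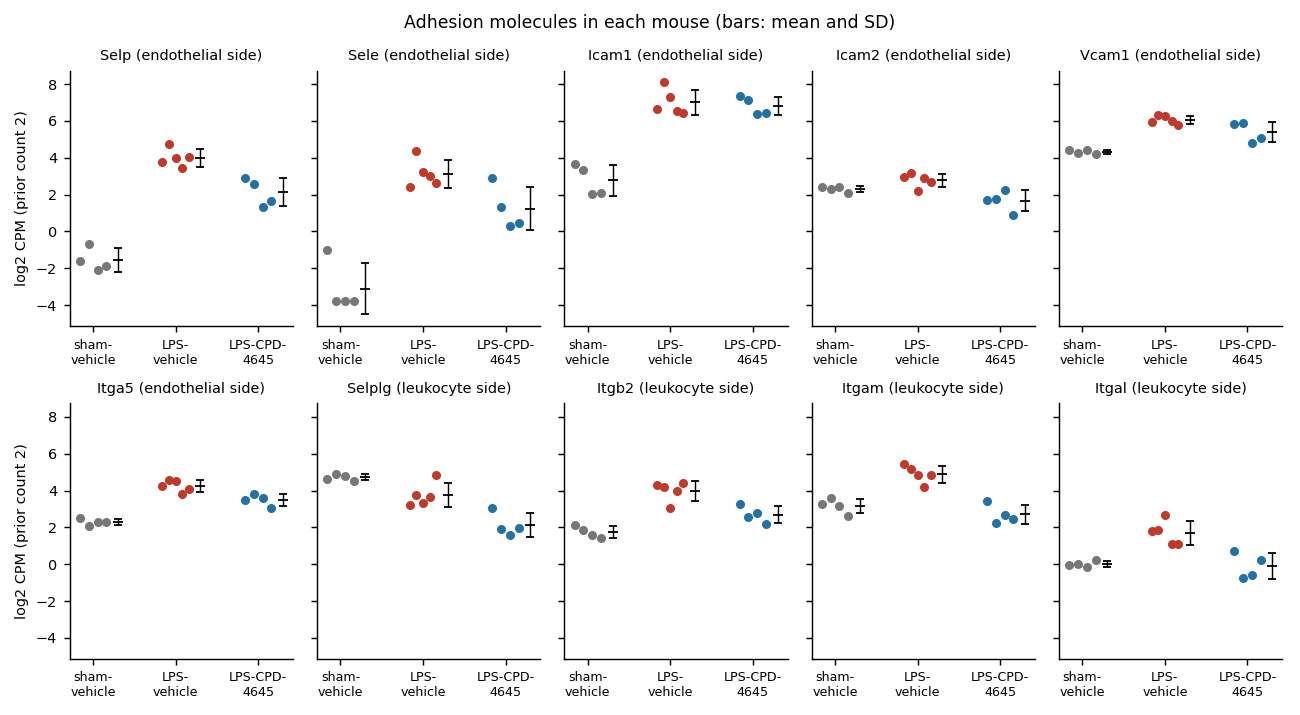
Level of each adhesion molecule in each mouse (y axis: log2 CPM with a prior count of 2; x axis: group; points: single mice, 4 sham-vehicle, 5 LPS-vehicle and 4 LPS-CPD-4645; bars: mean and SD). *Selp*, *Sele* and *Icam1* sit lowest in sham-vehicle mice, *Icam1* sits at a like height in both LPS groups, and *Selplg* sits highest in sham-vehicle mice.

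Levels between genes were compared per kilobase of annotated exon. In sham-vehicle mice the order began with *Selplg* at 14.2 ± 1.56 CPM per kilobase (SD, n = 4), followed by *Vcam1* at 3.98 ± 0.295, *Icam2* at 3.804 ± 0.422 and *Icam1* at 3.02 ± 1.68. *Selp* at 0.0856 ± 0.0534 and *Sele* at 0.0367 ± 0.0735 CPM per kilobase closed it. The ranges over mice were apart only between *Selplg* and *Vcam1* and between *Itga5* and *Itgal*, so the other neighbours in the order did not differ beyond their spread.

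In LPS-vehicle mice *Icam1* led at 56.0 ± 31.1 CPM per kilobase (SD, n = 5), *Vcam1* followed at 13.4 ± 2.02, and *Itgal* came last at 0.548 ± 0.270. The 7 genes between them had means from 3.39 (*Sele*) to 7.96 (*Selplg*) CPM per kilobase, and neighbours among them overlapped. In LPS-CPD-4645 mice *Icam1* stood at 46.6 ± 15.6 CPM per kilobase (SD, n = 4) and *Vcam1* at 8.81 ± 3.14, each apart from its neighbours. *Selplg*, first in sham-vehicle mice, took the fifth place there at 2.52 ± 1.32 CPM per kilobase.

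The first comparison asked what systemic LPS did to these genes in this neurovascular fraction. In LPS-vehicle mice 8 of the 10 genes rose against sham-vehicle mice: *Selp*, *Sele*, *Icam1*, *Vcam1* and *Itga5* on the endothelial side, and *Itgb2*, *Itgam* and *Itgal* on the leukocyte side. A gene was called where edgeR's quasi-likelihood test gave an adjusted p (Benjamini-Hochberg, over all genes tested) within 0.05 and the change reached 2-fold. By that rule 4.68% of all genes rose and 0.995% fell. In the same 8 genes the 5 LPS-vehicle mice were all higher than the 4 sham-vehicle mice, which held for 9.68% of all genes, and 8.44% of all genes lay wholly below.

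*Selp* encodes P-selectin, which endothelium and platelets store in granules and move to the surface on activation. Its levels were 0.257, 0.563, 0.159 and 0.198 CPM in the sham-vehicle mice and 13.5, 26.8, 15.5, 10.9 and 16.3 CPM in the LPS-vehicle mice. The groups were far apart, and in sham-vehicle mice these levels rested on 4 to 14 counts. The difference was 5.80 ± 0.44 on the log2 scale (SE, 55.6-fold, adjusted p = 5.53e-08).

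*Sele*, which encodes E-selectin, the selectin that endothelium makes largely once activated, was at 15 counts (0.428 CPM) in sham-vehicle mouse 1 and at 0 counts in the other 3. In LPS-vehicle mice it stood at 5.15, 20.8, 9.45, 7.83 and 6.17 CPM. LPS-vehicle mouse 2 was the highest of its group and sham-vehicle mouse 1 the highest of the other, and the groups did not overlap. The log2 difference was 6.16 ± 0.82 (SE, adjusted p = 2.77e-05), a size that rests on the counts of sham-vehicle mouse 1. Without that mouse, and with a floor of 3 counts per library in the other 3, *Sele* was at least 76.3-fold higher in LPS-vehicle mice. This bound was 55.25-fold when LPS-vehicle mouse 2 was left out too.

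*Icam1* encodes the endothelial ligand that both beta-2 integrins of this list bind. It stood at 12.5, 10.0, 3.94 and 4.197 CPM in sham-vehicle mice and at 99.1, 273.9, 157, 93.5 and 86.4 CPM in LPS-vehicle mice. Sham-vehicle mice split into a higher and a lower pair, and LPS-vehicle mouse 2 stood above the rest of its group. The log2 difference was 4.18 ± 0.41 (SE, 18.1-fold, adjusted p = 9.06e-07).

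*Vcam1* encodes the ligand of the integrin made from *Itga4* and *Itgb1*. It varied little among sham-vehicle mice, with 20.9, 19.0, 21.2 and 18.2 CPM, and stood at 60.7, 78.6, 76.1, 63.1 and 55.4 CPM in LPS-vehicle mice. All 5 LPS-vehicle values lay above all sham-vehicle values, with a log2 difference of 1.75 ± 0.19 (SE, adjusted p = 2.34e-06). *Itga5*, whose product pairs with the beta-1 subunit as a fibronectin receptor and is also made by pericytes and leukocytes, was at 4.18 to 5.59 CPM in sham-vehicle mice. In LPS-vehicle mice it was at 13.9 to 23.6 CPM, a log2 difference of 1.97 ± 0.19 (SE, adjusted p = 5.91e-07).

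*Icam2*, which encodes a ligand that resting endothelium carries, was the endothelial-side gene that did not pass the test. It stood at 5.28, 4.79, 5.30 and 4.15 CPM in sham-vehicle mice and at 7.62, 8.81, 4.54, 7.50 and 6.32 CPM in LPS-vehicle mice. LPS-vehicle mouse 3, the shallowest library with 36 counts of *Icam2*, lay within the sham-vehicle range, and the other 4 lay above it. The log2 difference was 0.53 with a 95% interval from 0.06 to 0.996 (adjusted p = 0.131), and over the alternatives the adjusted p ran from 0.0529 to 0.279.

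On the leukocyte side *Itgb2*, the beta-2 subunit that the products of *Itgam* and *Itgal* pair with, stood at 4.34, 3.54, 2.99 and 2.57 CPM in sham-vehicle mice. It stood at 19.9, 18.4, 8.19, 15.5 and 21.1 CPM in LPS-vehicle mice, with the shallowest library, mouse 3, lowest. The log2 difference was 2.31 ± 0.26 (SE, 4.97-fold, adjusted p = 5.30e-06).

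*Itgam* encodes the alpha-M subunit (CD11b) of neutrophils, monocytes and microglia. Its levels were 9.64, 11.9, 8.88 and 6.12 CPM in sham-vehicle mice and 43.6, 35.9, 28.2, 18.4 and 28.1 CPM in LPS-vehicle mice, with a log2 difference of 1.75 ± 0.26 (SE, adjusted p = 7.35e-05). *Itgal*, the alpha-L subunit (CD11a) of the integrin LFA-1 of lymphocytes and other leukocytes, was low throughout. It stood at 0.837 to 1.09 CPM (21 to 31 counts) in sham-vehicle mice and at 2.06 to 6.30 CPM in LPS-vehicle mice, a log2 difference of 1.86 ± 0.39 (SE, adjusted p = 0.00225).

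*Selplg* encodes PSGL-1, the main ligand of P-selectin, and is transcribed by leukocytes and by microglia. It stood at 25.1, 29.6, 27.8 and 23.1 CPM in sham-vehicle mice and at 9.31, 13.2, 9.96, 12.3 and 29.0 CPM in LPS-vehicle mice. LPS-vehicle mouse 5 alone lay in the sham-vehicle range, and the other 4 lay below it. With all mice the log2 difference was -0.82 ± 0.29 (SE, adjusted p = 0.0554), which missed the threshold. Without LPS-vehicle mouse 5 it was -1.23 (adjusted p = 0.00102), past the threshold.

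The plot of fold changes sets the 3 comparisons beside each other. LPS-vehicle mice enter 2 of them and so do the mice of each other group, so the panels are not independent.

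**Figure D2:**
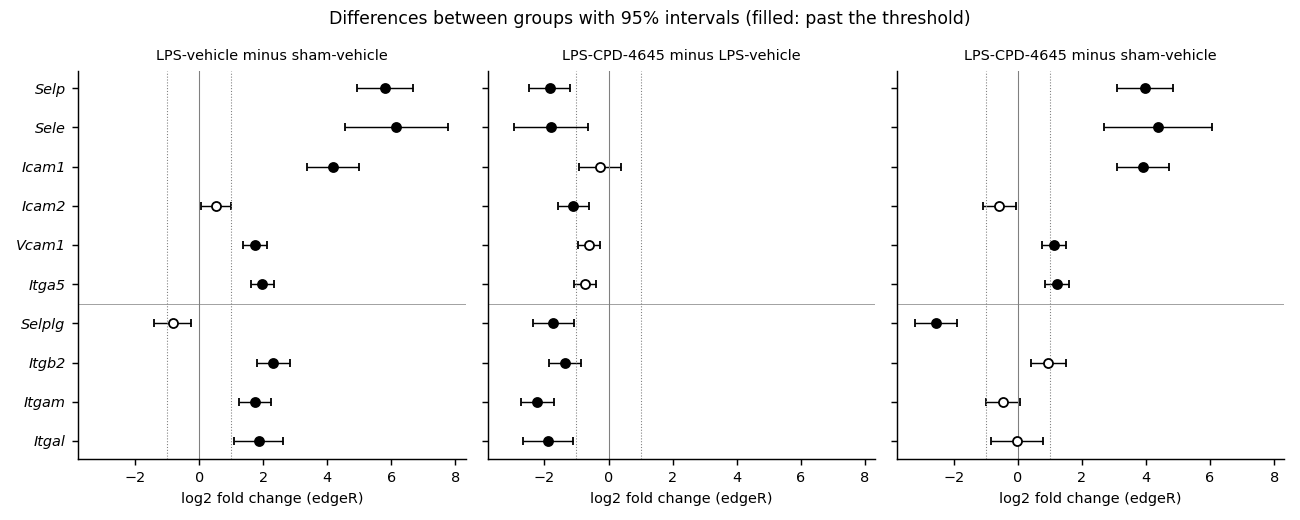
Difference between groups for each adhesion molecule (x axis: log2 fold change from edgeR; points: estimate; bars: 95% interval; filled points: past the threshold; dotted lines: 2-fold; the horizontal line parts the endothelial side, above, from the leukocyte side, below). In the left panel 8 points are filled on the right side, in the middle panel 7 are filled on the left, and in the right panel 5 endothelial-side points are filled on the right and *Selplg* on the left.

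The second comparison asked what CPD-4645 did in LPS-treated mice. All 10 log2 differences of LPS-CPD-4645 from LPS-vehicle mice (called "under CPD-4645" from here) were below 0, and 7 genes fell past the threshold: *Selp*, *Sele*, *Icam2*, *Selplg*, *Itgb2*, *Itgam* and *Itgal*. Over all genes 4.19% fell and 1.7% rose in this comparison. *Selp*, *Selplg*, *Itgam* and *Itgal* lay in every LPS-CPD-4645 mouse below every LPS-vehicle mouse, as 12% of all genes did, while 11.1% lay wholly above.

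The largest fall was that of *Itgam*, to 10.7, 4.69, 6.25 and 5.46 CPM in the 4 LPS-CPD-4645 mice, against 18.4 CPM in the lowest LPS-vehicle mouse. The log2 difference was -2.22 ± 0.27 (SE, 4.66-fold lower, adjusted p = 1.78e-05). *Itgal* stood at 1.58, 0.525, 0.602 and 1.10 CPM (15 to 28 counts), with a log2 difference of -1.89 ± 0.40 (SE, adjusted p = 0.00180). *Itgb2*, their shared partner, fell less, by 1.36 ± 0.25 on the log2 scale (SE, adjusted p = 0.000701). Its LPS-CPD-4645 levels of 9.41, 5.91, 6.81 and 4.43 CPM overlapped with the 8.19 CPM of LPS-vehicle mouse 3.

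*Selplg* stood at 8.30, 3.64, 2.90 and 3.85 CPM in LPS-CPD-4645 mice, all below the lowest LPS-vehicle mouse at 9.31 CPM. The log2 difference was -1.73 ± 0.33 (SE, 3.32-fold lower, adjusted p = 0.000772).

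*Selp* fell to 7.51, 5.98, 2.45 and 3.06 CPM, below the lowest LPS-vehicle value of 10.9 CPM, with a log2 difference of -1.84 ± 0.33 (SE, 3.57-fold lower, adjusted p = 0.000508). *Sele* stood at 7.27, 2.45, 1.17 and 1.29 CPM, and LPS-CPD-4645 mouse 1 lay within the LPS-vehicle range. The log2 difference of *Sele* was -1.78 ± 0.59 (SE, adjusted p = 0.0284). That call was lost with DESeq2 (adjusted p = 0.190) and when mouse 2 of the LPS-vehicle group (0.110) or mouse 2 (0.0773), 3 (0.0864) or 4 (0.0904) of the LPS-CPD-4645 group was left out.

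*Icam1* did not move past the test. Its levels of 163, 140, 83.8 and 85.8 CPM in LPS-CPD-4645 mice lay among those of the LPS-vehicle mice except for the 2 lowest, and the log2 difference was -0.27 with a 95% interval from -0.93 to 0.39 (adjusted p = 0.579). Without LPS-vehicle mouse 2 the difference turned to 0.12 (adjusted p = 0.777). *Icam2* fell by 1.10 ± 0.25 on the log2 scale (SE, adjusted p = 0.00271), with 3.24, 3.36, 4.71 and 1.80 CPM in the 4 mice, and LPS-CPD-4645 mouse 3 lay above the lowest LPS-vehicle mouse. Without LPS-CPD-4645 mouse 4, which had the lowest value, *Icam2* was at -0.88 on the log2 scale and under 2-fold.

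*Vcam1* and *Itga5* had adjusted p values under the limit with changes of less than 2-fold. *Vcam1* stood at 56.4, 58.1, 27.5 and 33.7 CPM in LPS-CPD-4645 mice, where mice 1 and 2 lay in the LPS-vehicle range and mice 3 and 4 below it (log2 difference -0.61 ± 0.18, SE, adjusted p = 0.0151). *Itga5* stood at 10.99, 14.1, 12.2 and 8.32 CPM, with 1 of the 4 mice above the lowest LPS-vehicle mouse (log2 difference -0.75 ± 0.18, SE, adjusted p = 0.00397).

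The third comparison asked how LPS-CPD-4645 mice stood against sham-vehicle mice. *Selp*, *Sele*, *Icam1*, *Vcam1* and *Itga5*, which are 5 of the 6 endothelial-side genes, were called higher. On the leukocyte side 1 gene, *Itgb2*, was higher at an adjusted p within the limit, but under 2-fold, and limma-voom and DESeq2 called 0 of the 4 as higher. *Selplg* was called lower. Of all genes 6.11% rose and 4.98% fell. Genes wholly above sham-vehicle mice numbered 6 of the 10, those 5 and *Itgb2*, against 18.7% of all genes, and *Selplg* lay wholly below, as 18.8% of all genes did.

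The log2 differences from sham-vehicle mice were 3.96 ± 0.45 for *Selp* (SE, adjusted p = 3.04e-06) and 3.91 ± 0.41 for *Icam1* (adjusted p = 1.39e-06). *Sele* was 4.37 ± 0.85 higher (adjusted p = 0.000599), and at least 23.5-fold higher against the floor without sham-vehicle mouse 1. That bound was 12.6-fold when LPS-CPD-4645 mouse 1, the highest of its group, was left out too. *Itga5* was 1.22 ± 0.19 higher (adjusted p = 7.46e-05). *Vcam1* was 1.14 ± 0.19 higher (adjusted p = 0.000149), and at 0.97 it fell under 2-fold without LPS-CPD-4645 mouse 2.

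*Selplg* differed from sham-vehicle mice by -2.56 ± 0.34 on the log2 scale (SE, 5.88-fold lower, adjusted p = 1.54e-05). *Itgb2* was 0.95 ± 0.27 higher (SE, adjusted p = 0.00969). It passed 2-fold without sham-vehicle mouse 1 (1.11) or LPS-CPD-4645 mouse 2 (1.004) or 4 (1.12). *Itgam* at -0.47 (95% interval from -0.9998 to 0.06, adjusted p = 0.184), *Itgal* at -0.03 (from -0.85 to 0.80, adjusted p = 0.970) and *Icam2* at -0.57 (from -1.08 to -0.07, adjusted p = 0.0857) did not pass the test.

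Set on a scale where the sham-vehicle mean is 0% and the LPS-vehicle mean 100%, the mean CPM of LPS-CPD-4645 mice lay at 82.3% for *Icam1*, with 71.2% to 109% as each mouse was left out in turn. *Vcam1* lay at 51.3% (41.2% to 62.9%) and *Itga5* at 45.5% (39.3% to 52.6%). *Selp* lay lower, at 27.4% (21.7% to 32.4%). *Sele* lay at 30.1% (15.7% to 41.7%), a range that overlapped those of *Vcam1* and *Itga5*. *Itgb2* lay at 24.8% (17.8% to 30.3%), *Itgal* at 0.730% (-7.46% to 6.29%) and *Itgam* at -10.8% (-16.9% to -6.31%), which is below the sham-vehicle mean. *Icam2*, which did not pass the test after LPS, lay at -76.9% (-100% to -53.3%). For *Selplg*, whose LPS-vehicle mean was the lower, the LPS-CPD-4645 mean lay beyond it at 186% (143% to 211%). The same LPS-vehicle and sham-vehicle mice set the scale for every gene, and these shares are descriptions with no test.

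Ratios between genes within a mouse do not depend on library size. The ratio of *Selp* to *Icam1*, in CPM per kilobase, was 0.0152 to 0.0415 in sham-vehicle mice, 0.0721 to 0.139 in LPS-vehicle mice and 0.0215 to 0.0340 in LPS-CPD-4645 mice. The LPS-vehicle mice stood apart from both other groups, which overlapped. The ratio of *Icam1* to *Vcam1* was 0.366 to 1.17 in sham-vehicle, 2.91 to 6.85 in LPS-vehicle and 4.74 to 5.99 in LPS-CPD-4645 mice. The ratio of *Icam1* to *Icam2* was 0.376 to 1.19, 6.30 to 17.5 and 9 to 25.4 in the same order, so both LPS groups lay above sham-vehicle mice and overlapped with each other.

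The alpha subunits were also set against their beta subunit. The sum of *Itgam* and *Itgal* over *Itgb2* had means of 1.79 ± 0.314 in sham-vehicle mice, 1.35 ± 0.664 after LPS and 0.684 ± 0.155 after LPS with CPD-4645 (SD, n = 4, 5 and 4). All LPS-CPD-4645 mice lay below all sham-vehicle mice, and 1 of them lay above the lowest LPS-vehicle mouse. The ratio of *Itgam* to *Itgal* overlapped between all groups, with means of 13 ± 3.99, 12.9 ± 4.71 and 10.1 ± 3.08 (SD, n = 4, 5 and 4).

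**Figure D3:**
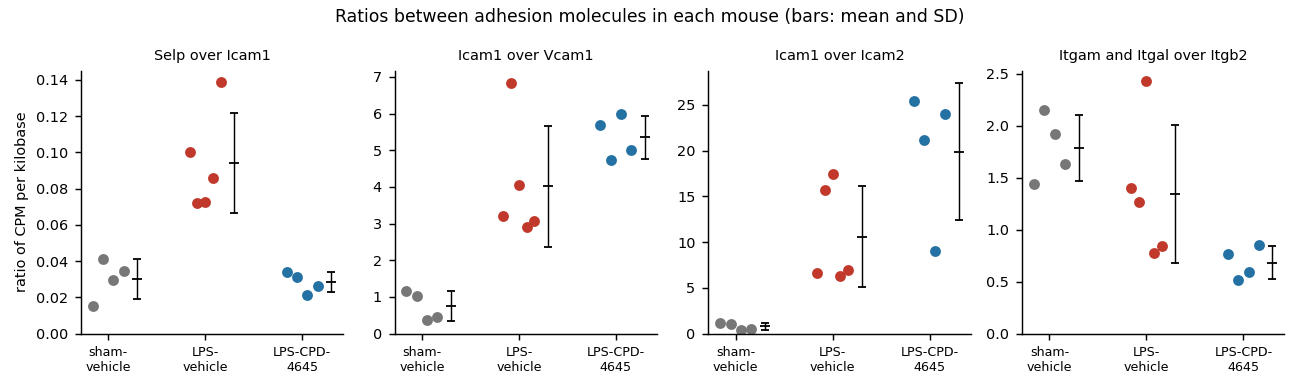
Ratios between adhesion molecules in each mouse (y axis: ratio of CPM per kilobase of exon; x axis: group; points: single mice; bars: mean and SD). *Selp* over *Icam1* is highest in the 5 LPS-vehicle mice, and *Icam1* over *Vcam1* and over *Icam2* is higher in both LPS groups than in sham-vehicle mice. The alpha subunits over *Itgb2* have their lowest mean in the LPS-CPD-4645 mice, which overlap with the LPS-vehicle mice.

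Endothelial and leukocyte sides were then compared as wholes, by counts and medians and with no test, because the genes of a side share the same mice. After LPS the median log2 difference was 3.08 over the 6 endothelial-side genes and 1.81 over the 4 leukocyte-side genes, against -0.0007 over all genes tested. Under CPD-4645 the medians were -0.92 and -1.81, against -0.02 over all genes. Against sham-vehicle mice LPS-CPD-4645 mice had medians of 2.57 and -0.25. Without *Itga5*, which pericytes and leukocytes also make, the endothelial-side medians in the same order were 4.18, -1.10 and 3.91. The sides are labels, and which cells of the fraction made each gene was not measured. Without *Selplg* the leukocyte medians were 1.86, -1.89 and -0.03.

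Per mouse, the mean log2 CPM of the endothelial side minus that of the leukocyte side ran from -1.49 to -0.78 in sham-vehicle mice, from 0.49 to 1.46 in LPS-vehicle mice and from 1.22 to 2.26 in LPS-CPD-4645 mice. Sham-vehicle mice were thus apart from both LPS groups, and the LPS groups overlapped. The mean log2 CPM of the leukocyte side was 2.41 ± 0.17 in sham-vehicle mice, 3.59 ± 0.24 after LPS and 1.86 ± 0.51 after LPS with CPD-4645 (SD, n = 4, 5 and 4). That of the endothelial side was 1.17 ± 0.42, 4.53 ± 0.40 and 3.46 ± 0.52.

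**Figure D4:**
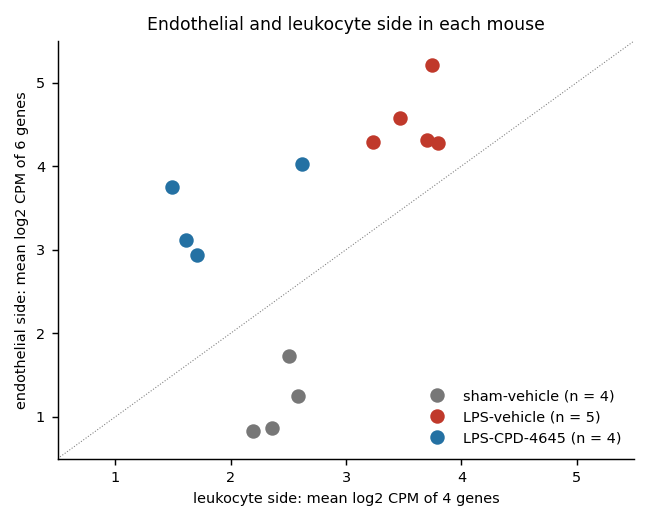
Mean log2 CPM of the 6 endothelial-side genes (y axis) against that of the 4 leukocyte-side genes (x axis) in each mouse; the dotted line marks equal values. The 4 sham-vehicle mice lie below the line, the 5 LPS-vehicle mice lie above it with the highest values on both axes, and the 4 LPS-CPD-4645 mice lie above it with leukocyte-side values from 1.49 to 2.62.

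Markers of the cell types that could carry these genes moved as well. The 9 neutrophil markers, among them *S100a8*, *S100a9* and *Cxcr2*, summed to 1.23 to 5.59 CPM in sham-vehicle mice, to 66.6 to 281 CPM after LPS and to 7.30 to 27.6 CPM after LPS with CPD-4645. All 8 of those tested rose after LPS, and all 8 fell under CPD-4645. The 5 monocyte markers summed to 0.346 to 2.09, 8.41 to 25.8 and 2.62 to 7.75 CPM in the same order, with 4 of 4 tested rising after LPS and 2 of 4 falling under CPD-4645. *Itgb2*, *Itgam* and *Itgal* moved in the same directions, and the part of these cells in their change was not tested.

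Microglia, the resident macrophages of the brain, also transcribe *Selplg*, *Itgam* and *Itgb2*. The 8 microglial markers summed to 194 to 256 CPM in sham-vehicle mice, to 125 to 224 CPM after LPS and to 125 to 149 CPM after LPS with CPD-4645. After LPS 4 of the 8 fell, and 5 fell between LPS-CPD-4645 and sham-vehicle mice, where *Selplg* was also lower. Under CPD-4645 edgeR, limma-voom and DESeq2 each called 0 of the 8 lower and 1 higher, while *Selplg* was 3.32-fold lower. At any size 2 of the 8 were lower by edgeR at an unadjusted p under 0.05, and 2 on the adjusted p alone, with 1 higher by either limit. Of all genes 22% and 16.4% were lower, and 19.4% and 14.1% higher. The median log2 difference of the 8 was -0.37, and the median sum was 163.9 CPM in LPS-vehicle and 126.5 CPM in LPS-CPD-4645 mice. *P2ry12*, the purinergic receptor of resting microglia, stood at means of 26.9, 2.58 and 2.59 CPM in sham-vehicle, LPS-vehicle and LPS-CPD-4645 mice. Relative to the summed microglial markers *Selplg* was lower in every LPS-CPD-4645 mouse than in every sham-vehicle mouse, with a mean difference of -1.74 (log2 ratio). On this scale it differed by -0.47 after LPS and by -1.27 under CPD-4645, and the groups overlapped in both cases. The 5 markers of border macrophages, among them *Lyve1* and *F13a1*, summed to 4.62 to 5.78, 6.01 to 17.5 and 3.18 to 4.74 CPM.

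Platelets hold P-selectin too. Their 7 markers summed to 12.7 to 18.0, 11.8 to 17.3 and 14.9 to 21.6 CPM in sham-vehicle, LPS-vehicle and LPS-CPD-4645 mice. Most of the sum was *Gp1bb*, with means of 8.60, 9.28 and 13.8 CPM in that order. The 3 tested had log2 differences of -0.09 (*Pf4*), 0.10 (*Gp1bb*) and 0.28 (*Itga2b*) after LPS. The untested *Ppbp*, *Gp9*, *Treml1* and *Gp6* had means of 0.757, 0.346, 0.235 and 0.0223 CPM in sham-vehicle mice. In LPS-vehicle mice these were lower, at 0.169, 0.0782, 0.117 and 0.00687 CPM. Whether platelet content changed was not tested. Relative to the summed platelet markers *Selp* was 5.41 higher on the log2 ratio scale in LPS-vehicle than in sham-vehicle mice, with the groups apart. Lymphocyte markers were near 0, with a sum of 0.237 to 1.49 CPM over 9 genes in all 13 mice, and the T cell gene *Cd3e* had 0 counts in every LPS-CPD-4645 mouse.

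**Figure D5:**
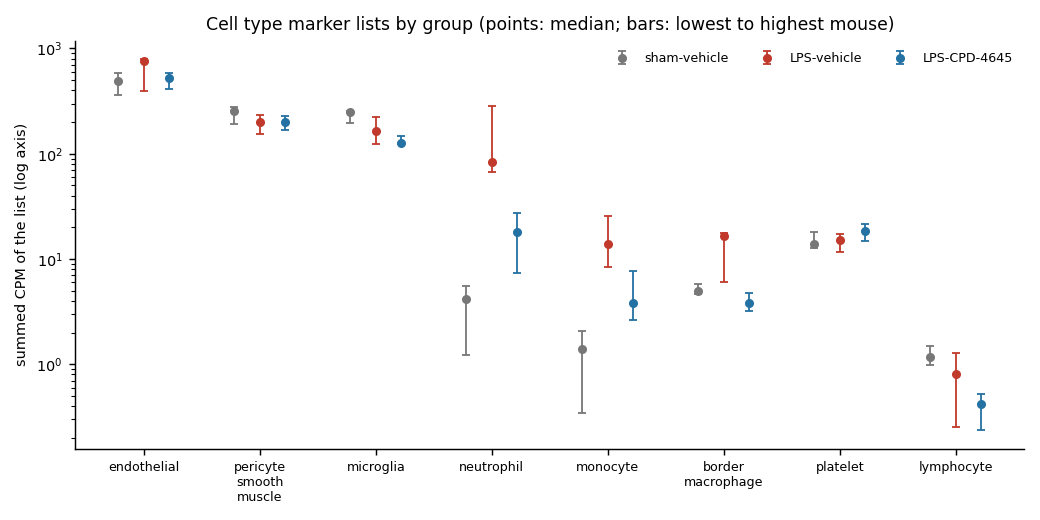
Summed CPM of 8 marker lists by group (y axis: CPM, log axis; x axis: marker list; points: median; bars: lowest to highest mouse; n = 4 sham-vehicle, 5 LPS-vehicle and 4 LPS-CPD-4645). Neutrophil and monocyte markers are highest in LPS-vehicle mice, microglial markers are highest in sham-vehicle mice, and platelet markers overlap between the groups.

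The endothelial markers did not all move in the same direction. Their sum was 361 to 579, 391 to 790 and 412 to 587 CPM in sham-vehicle, LPS-vehicle and LPS-CPD-4645 mice, with medians of 491, 757 and 524 CPM. LPS-vehicle mouse 3, the shallowest library, had 391 CPM and lay among the other groups, while the other 4 LPS-vehicle mice (650 to 790 CPM) lay above every sham-vehicle and LPS-CPD-4645 mouse. Apart from mouse 3, the sum thus moved in the same directions as *Selp*, *Sele* and *Vcam1*. After LPS 2 of the 12 rose, *Cdh5* and *Ly6c1*, and 2 fell, *Tek* and *Slco1a4*. Under CPD-4645 *Tie1* fell past the threshold (log2 difference -1.02; adjusted p = 0.00295), and *Pecam1* was at -0.82 (adjusted p = 0.00337).

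Relative to the summed endothelial markers (log2 of the ratio of CPM, 0.1 added to the gene and to the sum) *Selp* was 4.98 higher in LPS-vehicle than in sham-vehicle mice and differed by -1.504 under CPD-4645. The groups were apart in both cases. *Sele* was 5.40 higher after LPS, with the groups apart, and differed by -1.52 under CPD-4645, where the LPS groups overlapped. *Icam1* was 3.77 and *Vcam1* 1.28 higher after LPS, and *Icam2* differed by 0.02. Under CPD-4645 *Icam2* was at -0.75, *Itga5* at -0.40, *Vcam1* at -0.31 and *Icam1* at 0.18 on this scale, and the mice of both LPS groups overlapped for each of these 4 genes as well.

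Other genes of the same steps were read from 4 lists. Of 20 further endothelial adhesion and junction genes 19 were tested, with a median log2 difference of 0.15 after LPS. *Pvr*, the poliovirus receptor that leukocyte DNAM-1 binds, rose by 1.32 ± 0.19 (SE, adjusted p = 5.74e-05), and the junction genes *Esam* (1.16), *Cdh5* (1.14) and *F11r* (1.12) rose as well. *Aoc3*, which encodes vascular adhesion protein 1, fell by 1.90 ± 0.57 (adjusted p = 0.0257), a call lost without sham-vehicle mouse 2 (-1.81, adjusted p = 0.0539) or 3 (-1.80, 0.0752) or LPS-vehicle mouse 5 (-1.76, 0.0537). Under CPD-4645 edgeR called 0 of the 19, as did limma-voom and DESeq2. At an unadjusted p under 0.05 and any size 8 of the 19 (42.1%) were lower and 1 (5.26%) higher, beside 22% and 19.4% of all genes. On the adjusted p alone 7 of the 19 (36.8%) were lower, by 0.38 to 0.82 on the log2 scale, beside 16.4% of all genes, and 1 was higher, beside 14.1%. The list's median was -0.28, and no test of the list against other genes was made. Against sham-vehicle mice *Pvr* (1.14) and *Cdh5* (1.12) were higher and *Aoc3* (-2.18) lower in LPS-CPD-4645 mice. *Madcam1*, the mucosal addressin, was called higher there at 0.541 against 0.0679 CPM (adjusted p = 0.00814), on 20 counts at most in any mouse.

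Of 17 further leukocyte adhesion genes 14 were tested, with a median log2 difference of 0.17 after LPS. *Jaml*, which encodes a junction-adhesion molecule of neutrophils and monocytes, rose by 3.69 ± 0.37 (SE, adjusted p = 1.03e-06), and *Itgad* (2.39), *Itga6* (1.21) and *Cd44* (1.15) rose too. Under CPD-4645 *Itga4*, whose product binds *Vcam1*'s, fell by 1.03 ± 0.22 (SE, adjusted p = 0.00185) and *Itgb3* by 1.09 ± 0.26 (adjusted p = 0.00467). *Itga4* and *Itgb3* were lower in all LPS-CPD-4645 than in all LPS-vehicle mice, and each fell under 2-fold without some single mice (*Itga4* without mouse 3 or 4 of the LPS-vehicle or mouse 3 of the LPS-CPD-4645 group, *Itgb3* without mouse 2 of the former or 4 of the latter). *Jaml* stood at 4.45 ± 0.81 CPM in LPS-vehicle (SD, n = 5) and 3.96 ± 1.26 CPM in LPS-CPD-4645 mice (n = 4), and against sham-vehicle mice it was 3.53 higher in the latter, with *Itgad* (2.32), *Cd44* (1.78) and *Itga6* (1.27) higher as well. The calls of *Itgad* were lost with limma-voom (adjusted p = 0.0993 and 0.105). Its reads could be shared with *Cox6a2*, which overlaps it on the other strand.

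The 13 genes that build selectin ligands were all tested. *B4galt1*, a galactosyltransferase, rose after LPS by 1.55 ± 0.19 (SE, adjusted p = 1.24e-05). *Fut7*, the fucosyltransferase that completes the sialyl Lewis x group on selectin ligands, stood at 1.02 ± 0.564 CPM in sham-vehicle mice, 1.01 ± 0.477 CPM after LPS and 4.02 ± 1.13 CPM after LPS with CPD-4645 (SD, n = 4, 5 and 4). All LPS-CPD-4645 mice lay above all other mice, and the log2 difference from LPS-vehicle mice was 2.06 ± 0.40 (SE, adjusted p = 0.000927). *Gcnt1*, which builds the branched core that carries that group, fell by 1.19 ± 0.29 in the same comparison (adjusted p = 0.00478), and under 2-fold without LPS-CPD-4645 mouse 2.

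Of 16 genes of integrin activation, *Fyb* (3.24 ± 0.37, SE, adjusted p = 5.57e-06), *Plek* (1.35) and *Fermt3* (1.29) rose after LPS. *Fermt3* encodes kindlin-3, which leukocyte integrins need to become active. Under CPD-4645 edgeR called 0 of the 16, as did limma-voom and DESeq2. At an unadjusted p under 0.05 and any size 7 of the 16 (43.8%) were lower and 1 (6.25%) higher, and on the adjusted p alone 3 (18.8%) were lower, where the shares of all genes were those given for the endothelial list. *Fyb* (2.53) and *Plek* (1.28) were higher in LPS-CPD-4645 than in sham-vehicle mice. *Fermt3*, *Plek* and *Fyb* each overlap another counted gene (*Trpt1*, *Cnrip1* and *Gm7666*), and reads could be shared with it.

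Genes most like each member were named by the Pearson correlation of log2 CPM over the 13 mice, among the 14845 genes whose mean reached 1 CPM. These values are descriptions, since the 3 groups alone make genes correlate and all genes share the same libraries. Nearest to *Selp* were *Ggta1* (r = 0.986), *Adamts9* (0.984) and *C4b* (0.979), nearest to *Sele* were *Pilrb1* (0.973), *Ifi202b* (0.972) and *Ms4a6d* (0.971), and nearest to *Icam1* were *Socs3* (0.980), *Timp1* (0.979) and *Ch25h* (0.978). *Vcam1* shared *Ggta1* (0.971) with *Selp*, followed by *Pros1* (0.970) and *Samsn1* (0.965). With group means removed the r of *Selp* with *Ggta1* was 0.847 and that of *Icam1* with *Socs3* 0.779.

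For *Itga5* the nearest genes were *Pirb* (0.979), *Oasl2* (0.968) and *Ncf1* (0.967), and for *Icam2* they were *Mau2* (0.954), *Kri1* (0.947) and *Pigv* (0.941). On the leukocyte side *Itgb2* was nearest to *Phc1* (0.981), *Adcy4* (0.973) and *Cbs* (0.966), *Itgam* to *Card9* (0.946), *Naprt* (0.937) and *Amigo2* (0.935), *Itgal* to *Slc50a1* (0.925), *Bbof1* (0.907) and *Mcoln1* (0.904), and *Selplg* to *Oxct1* (0.964), *Camkmt* (0.964) and *Caprin1* (0.959).

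Within the 10 genes the closest pair over the 13 mice was *Selp* with *Vcam1* (r = 0.958), followed by *Selp* with *Sele* (0.952), and *Icam1* with *Selplg* was the most negative (-0.621). With group means removed the highest was *Sele* with *Icam1* (0.788) and the lowest *Icam2* with *Itgal* (-0.504). *Selplg* correlated with the other leukocyte-side genes at -0.118 (*Itgb2*), 0.331 (*Itgam*) and 0.156 (*Itgal*), and at 0.515, 0.296 and 0.00285 with group means removed, where *Itgb2* with *Itgam* was at 0.54.

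On GRCm38 the selectin genes neighbour each other, *Sele* at chr1:164048234-164057677 and *Selp* at chr1:164115264-164150026. *Itgal* lies at chr7:127296260-127335138 and *Itgam* at chr7:128062640-128118491. *Icam1* lies at chr9:21015985-21028817, *Icam2* at chr11:106377656-106388075, *Vcam1* at chr3:116109949-116129688 and *Itga5* at chr15:103344286-103366763. *Selplg* lies at chr5:113818536-113832644 and *Itgb2* at chr10:77530252-77565708. Annotated genes overlap *Selp* (2 on the other strand), *Icam1* (1), *Vcam1* (1), *Itga5* (a miRNA) and *Itgam* (*Gm49368*, same strand). Those listed in the count table held at most 43 counts over all 13 libraries, and *Gm47079*, which overlaps *Icam1*, was not among the rows of the table.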

How the data were processed

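RNA of isolated brain vessels from 13 mice was sequenced as 1 library per mouse, and its group was taken from its label. The authors aligned stranded, single-end reads with STAR 2.5.2a to GRCm38 (mm10), counted them on GENCODE M9 basic and deposited whole-number counts per gene, without normalization. Which strand column was kept is not given in the sources used here. Symbols, positions and exon lengths came from GENCODE M21, matched for 47224 of 47643 identifiers. The delay of CPD-4645 is 30 min in the labels and methods, and the study's results text gives a longer one.

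Counts were tested with edgeR 4.0.16 in R 4.3.3: filterByExpr (minimum count 10, minimum total 15), TMM scaling (factors 0.908 to 1.08), and a quasi-likelihood fit of 3 groups over all 13 mice (common dispersion 0.0334), with Benjamini-Hochberg adjustment over 17285 genes. The threshold was an adjusted p of at most 0.05 and 2-fold. The test was checked on simulated data. All comparisons share mice. Alternatives were limma-voom (limma 3.58.1), DESeq2 1.42.0, its size factors, no filter, a mean count of at least 50, only the groups compared, a replicate block, and each mouse left out. Leaving out the 2 shallowest libraries was added after the depths were seen. Tables and plots used Python 3.11.15, pandas 2.3.3, numpy 2.4.6 and matplotlib 3.10.9.

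Total counts ran from 7813559 to 55133373 per library, and mitochondrial genes took 3.97% to 12.7%. Over the 22 pairs of replicates the mean squared difference was 9.26 to 56.5 times that of counting error, so no 2 libraries were the same. Floors cover counting error only.

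Named genes are the 10 members, up to 4 called genes with the largest change per further list, comparison and direction, and the 3 most correlated genes per member. A called gene of the further lists is not reported here. *P2ry12*, *Cd3e*, *S100a8*, *S100a9*, *Cxcr2*, *Pf4*, *Gp1bb*, *Itga2b*, *Ppbp*, *Gp9*, *Treml1*, *Gp6*, *Cdh5*, *Pecam1*, *Tek*, *Slco1a4*, *Ly6c1*, *Tie1*, *Lyve1* and *F13a1* were picked from the marker lists after their values were seen. The members and all lists were chosen with earlier results of these data known. The further lists and marker lists were written from general knowledge.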

Additional observations from a re-analysis of the deposited data

Results flagged for a closer look

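In groups of 4 or 5 mice, a mouse was singled out where its gap to the next mouse was a large share of the group's range (Dixon's 95% limit). Of the 30 groups of values examined (10 genes in 3 groups) 3 held such a mouse, and chance flags about 1 in 20. *Sele* in sham-vehicle mouse 1 was 0.428 CPM, where the other 3 mice were at 0. *Sele* in LPS-vehicle mouse 2 was 20.8 CPM, with the next mouse at 9.45 CPM. *Selplg* in LPS-vehicle mouse 5 was 29.0 CPM, with the next mouse at 13.2 CPM. LPS-vehicle mouse 2 was also the deepest library, at 55133373 counts, and what set these mice apart was not tested.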

How the results depend on the processing

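The count of adhesion molecules called was 8 to 9 after LPS, 5 to 7 under CPD-4645 and 6 to 7 against sham-vehicle mice as each mouse was left out, and it stayed within 1.5 times its value under every other alternative. Over 630 refits of single members, 614 kept their call and direction. Reversed signs were those of *Icam1* under CPD-4645 without LPS-vehicle mouse 2 (0.12, in a range from -0.45 to 0.12 as each mouse was left out) and of *Itgal* against sham-vehicle mice without sham-vehicle mouse 4 (0.06) or LPS-CPD-4645 mouse 2 (0.19) or 3 (0.15), in a range from -0.32 to 0.19, none past the threshold. The cause was not tested.

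On the adjusted p alone 3446 genes were called after LPS (981 with the 2-fold limit), 5271 under CPD-4645 (1019) and 6713 against sham-vehicle mice (1917), and of the 4 further lists 29 (13), 21 (5) and 30 (11). With genes of a mean count under 50 left untested, 632 were called under CPD-4645, and of the further lists 3 under CPD-4645 and 7 against sham-vehicle mice. As each mouse was left out, 3 to 5 of the further lists were called under CPD-4645.

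Without *Itga5* the endothelial median minus the leukocyte median was 2.37 after LPS (1.27 with it) and 4.16 against sham-vehicle mice (2.81). With *Pecam1* and *Cdh5* alone as the reference, *Icam2* after LPS turned from 0.02 to -0.46 and *Vcam1* was at 0.80, and against sham-vehicle mice *Icam1* was at 3.39, *Icam2* at -1.28, *Vcam1* at 0.42 and *Itga5* at 0.54.

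Replicate numbers did not pair the mice: same-numbered mice correlated at -0.0346 to 0.114 in their deviations from the group means, and 1 of 12 pairs was over 0.1. With a replicate block 9, 7 and 6 members were called in the 3 comparisons, *Selplg* after LPS being the added one at -1.24 (adjusted p = 0.00176), and *Aoc3* lost its call after LPS (-1.81, adjusted p = 0.0792). Depth limited *Sele* and *Selp* in sham-vehicle mice (0 to 15 counts) and *Itgal* (15 to 199 counts).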
